A study of Rattus norvegicus with 30 samples.

Results

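The proximal sciatic nerve stump of the rat 14 days after the nerve had been cut was compared with the sciatic nerve at 0 d, the control time point of the series. The members were the 3 arrays titled as sciatic nerve 14 d and the 3 titled as sciatic nerve 0 d, 6 of the 30 arrays in all, and every probe other than the array's own controls was examined. The animals were adult male Sprague-Dawley rats whose left sciatic nerve was cut in the thigh and a piece of it removed under injected anaesthesia (trichloroacetaldehyde monohydrate, magnesium sulfate and sodium pentobarbital). The study's methods set the transection groups against a 0 h control group and describe no separate procedure for that group. No transgene was used, and the labels list no further treatment of either group. Nerve tissue from the proximal side was taken, together with the lumbar dorsal root ganglia (L4-6), so that the 14 d samples hold the stump that is still joined to its neurons. Each array was hybridized with 1 RNA sample labelled with Cy3. The number of rats behind an array is not given in the sources used here, so the p-values measure the spread between arrays, which may hold both animal and technical differences.

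A peripheral nerve is made of axons, whose cell bodies lie in the ganglia and the spinal cord, of the Schwann cells that wrap them, and of fibroblasts, vessels, perineurial cells and resident immune cells. After a cut, Schwann cells that have lost contact with axons give up the myelin programme, take on a repair state marked by the transcription factor c-Jun and by trophic factors, and divide. Monocytes and lymphocytes enter from the blood, clear debris and release cytokines.

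All probes of genes that mark Schwann cells and myelin, such as Mbp, Prx, Pmp22 and S100b, were well above background on all 6 arrays. Values are normalized signals, that is, the log2 of the processed intensity minus the 75th percentile of the same array, so that 0 is the level of a fairly bright probe and each step of 1 is a doubling. They compare 1 gene between arrays and not 1 gene with another. The nerve samples are pieces of whole tissue, in which fewer cells of a type and less RNA per cell cannot be told apart. Array replicates correlated at r = 0.985 to 0.992 at 0 d and 0.987 to 0.994 at 14 d, and arrays of different times at 0.957 to 0.972. The 3 arrays of 0 d lay on 1 slide, replicates 1 and 2 of 14 d on another and replicate 3 of 14 d on yet another, and the 0 d and 14 d slides were scanned on different days, so slide or scan day and time cannot be told apart in this comparison. The number of probes that cleared background was 30227 to 31317 at 0 d and 33079 to 34870 at 14 d. Replicate 1 of 0 d stood apart in skeletal muscle transcripts: the mean normalized signal of 15 muscle genes was 6.86 on that array against 2.29 and 2.84 on the other 0 d arrays, and 3.59, 2.71 and 4.24 at 14 d. None of these 15 genes was called, and some results that move with that array are given with and without it. Of the 169 called genes named in the text, 4 lost their call without it, and not all of them are marked.

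A total of 5026 of 35163 probes were higher at 14 d than at 0 d (14.3%) and 1919 were lower (5.46%), by limma (p below 0.05 after Benjamini-Hochberg adjustment, and more than 2-fold). With 1 probe for each of 14201 genes, 2116 genes (14.9%) rose and 877 genes (6.18%) fell, and these shares are the background for every count below. The 14 d and 0 d values did not overlap for 2065 of the 2116 and 854 of the 877. In 902 of the genes that rose, the probe was not well above background on every array of 1 group, against 77 of those that fell. Changes of more than 10-fold were estimated for 91 genes that rose and 13 that fell. The balance of directions depended on the scaling: 72.4% of the called probes were higher with the 75th percentile, 53.6% with quantile normalization, 53.3% in the deposited log2 table, 46.7% with normexp background correction and quantile normalization, and 60.6% when only probes well above background on all 6 arrays were kept. The median log2 change of all probes was 0.16 in the first of these and 0.03 with quantile normalization, whereas normexp correction with the 75th percentile put it at 0.43. No probe was called in opposite directions by any of these settings.

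The gene with the largest rise among those well above background at both times was Calcb, which encodes beta-CGRP, a sensory neuropeptide. Its normalized signals were -5.89, -5.78 and -4.57 at 0 d and 0.78, 0.13 and 0.55 at 14 d. The groups were far apart, with a log2 change of 5.90 ± 0.28 (SE), or 59.6-fold (adjusted p = 4.5e-08). The probe lies at chr1:172780746-172780805 of the rn4 build. The probe of Calca, the alpha-CGRP gene, changed by 0.24 and was not called.

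Several of the other leading rises were in genes known from T cells and natural killer cells, though the cells of origin were not measured. The signals of Cd8a, the co-receptor chain of cytotoxic T cells, were -5.60, -6.02 and -5.62 at 0 d against -0.77, -1.27 and -0.86 at 14 d, a 27.5-fold rise (log2 change 4.78 ± 0.22, adjusted p = 3.3e-08). Sh2d1a, a signalling adaptor of T and natural killer cells, rose 27.4-fold, Ccl5, a chemokine made by T cells, 25.2-fold, and Gzmk, a granzyme, 18.1-fold. Ubd, an inducible ubiquitin-like modifier that is not among the T and natural killer cell markers listed below, rose 33.1-fold. The 3 arrays of 14 d were all above the 3 of 0 d in each of these, and replicate 2 of 14 d was the lowest of its group in all 5 genes.

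The remaining leaders were of other kinds. Epcam, an epithelial adhesion molecule, stood at -4.33, -4.41 and -4.86 at 0 d and at 0.00, -0.10 and 0.26 at 14 d, which is 24.1-fold. Gfra3, the artemin co-receptor, averaged -2.08 ± 0.07 (SD, 3 arrays) at 0 d and read 2.61, 2.03 and 2.25 at 14 d, 20.8-fold (log2 change 4.38 ± 0.12, adjusted p = 3.0e-09). Crabp1, a retinoic acid binding protein, rose 19.4-fold, Spon1, the matrix protein F-spondin, 18.2-fold, Tnfrsf14, a receptor of the tumour necrosis factor family, 15.2-fold, and Gpr83, a G protein-coupled receptor, 14.9-fold.

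Scd, the stearoyl-CoA desaturase that makes monounsaturated fatty acids, led the falls. It went from 4.24, 4.02 and 2.55 at 0 d to -1.13, 0.41 and -0.50 at 14 d, a 16.1-fold fall (log2 change -4.01 ± 0.41, adjusted p = 7.6e-06), and its probe lies at chr1:249459057-249459116 of rn4. The axon guidance receptor gene Robo3 fell 14.3-fold, although only 1 of its 2 probes was called. B3galt2, a galactosyltransferase, fell by 3.59 on the log2 scale, and Galnt13, which adds the first sugar of mucin-type chains, fell by 3.14. Vsnl1, a neuronal calcium sensor, fell from 2.48, 2.67 and 2.87 to -0.93, -0.43 and -0.96. Lrp2, the endocytic receptor megalin, fell from 0.66, 0.61 and 0.87 to -3.08, -2.32 and -2.75. C1qtnf4, a secreted C1q-related protein, fell 10.4-fold, Fgf4, a fibroblast growth factor, 9.71-fold, and Gpx2, a glutathione peroxidase, 8.45-fold. The slow and cardiac myosin heavy chain genes Myh7 and Myh6 had log2 changes of -3.74 and -3.33. Their 0 d signals in the nerve were even, at 1.29, 1.14 and 1.49 for Myh7, unlike those of the muscle genes above. In other groups both varied widely between arrays. The SD was 1.74 for Myh7 and 1.62 for Myh6 in the nerve at 1 d, and 1.72 and 1.59 in the ganglia at 0 d. Zbtb16, a zinc finger repressor, fell 9.61-fold with a wide spread at 0 d, from -2.69 to 0.20, and 1 of its 2 probes was called.

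**Figure D1:**
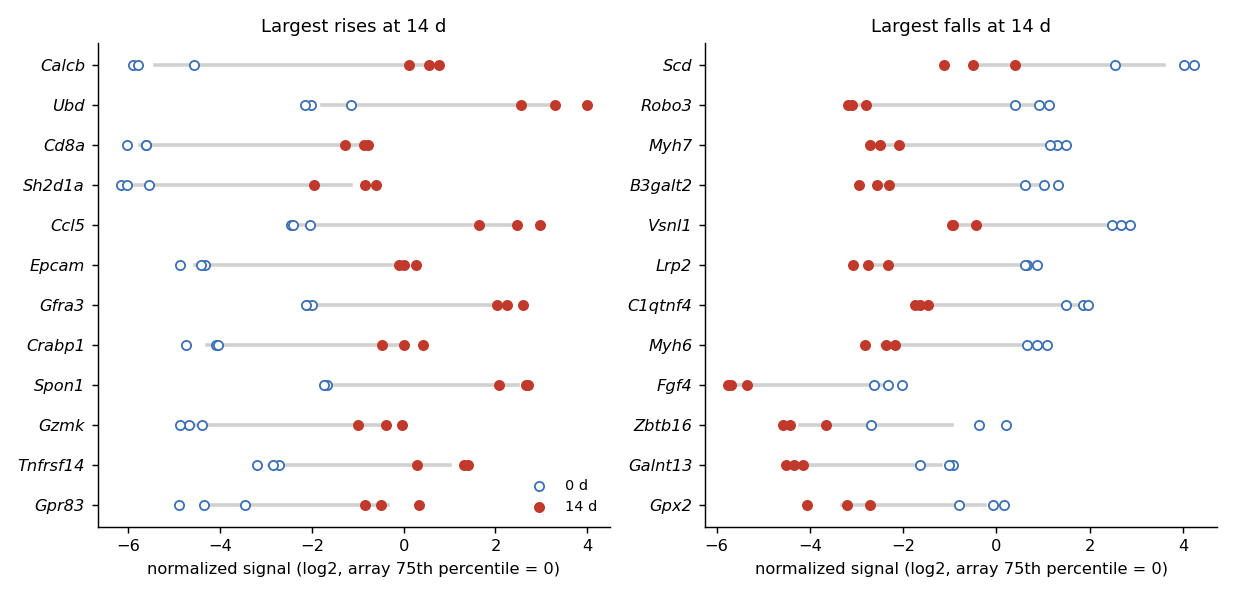
Normalized signal (log2, array 75th percentile = 0) of the 12 genes that rose most (left) and the 12 that fell most (right) among genes well above background at both times. Open circles are the 3 arrays of 0 d, filled circles the 3 arrays of 14 d, and the grey bar joins the group means; the 2 groups of circles do not overlap for any of the 24 genes.

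Some genes were well above background at only 1 of the times compared. Their fold changes are lower bounds set by the dimmest probes that still passed as signal. Where the gene's own dim signal was brighter than that, it was used instead. The bounds, here and below, take the mean of the brighter group and leave out its spread between arrays. The adjusted p-values given beside them are limma's for the change in the signals as measured, not for the bound. Mmp12, macrophage elastase, was not well above background at 0 d and read 0.33, -0.93 and -2.07 at 14 d, at least 45.6-fold higher (adjusted p = 2.0e-07). Ctsw, a cathepsin of cytotoxic lymphocytes, was at least 31.6-fold higher, Reg3g, a secreted lectin of the Reg family, at least 20.9-fold, Cd3e, a chain of the T cell receptor complex, at least 12.4-fold, and Mmp7, matrilysin, at least 10.6-fold. Mrap2, a melanocortin receptor accessory protein, was at least 12.9-fold higher. For Pnlip, pancreatic lipase, the 12.5-fold rise is the plain estimate, as its 0 d signals were brighter than the dimmest passing probes. Mcpt9, a mast cell protease, read -3.13, -4.10 and -1.78 at 14 d.

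In the other direction, Sst, the peptide somatostatin, read -2.55, -3.87 and -2.14 at 0 d and was not well above background at 14 d, at least 16.6-fold lower (adjusted p = 1.4e-05). Atp2b2, a plasma membrane calcium pump, was at least 11.1-fold lower, Rlbp1, a retinaldehyde binding protein, at least 10.3-fold, and Cyp1a1, a cytochrome P450 induced through the aryl hydrocarbon receptor, at least 9.26-fold. Unc13c, which primes synaptic vesicles, Agr2, a protein disulfide isomerase, Mc2r, the ACTH receptor, and Csmd1, a membrane protein with complement domains, followed with bounds of 3.64, 3.15, 3.11 and 3.08. After normexp correction with the 75th percentile none of these 8 genes was called, and the last 4 had changes of 0.11 to 0.33 in the opposite direction.

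The list with the lowest median change was cholesterol synthesis. Of 27 measured genes of that list, 22 fell and none rose, with a median log2 change of -1.66 against 0.12 over all genes. The mean normalized signal of the list was 2.10, 2.47 and 2.49 on the 0 d arrays and 0.69, 0.87 and 0.75 on the 14 d arrays. Hmgcs1, which makes the HMG-CoA that the pathway starts from, went from 7.12, 7.51 and 7.61 to 4.87, 5.14 and 5.15 (log2 change -2.36 ± 0.13, adjusted p = 1.3e-07). Later steps fell as well: Idi1, isopentenyl diphosphate isomerase, fell by 2.17 on the log2 scale, Sqle, squalene epoxidase, fell by 1.96, Lss, lanosterol synthase, by 2.20, Cyp51, lanosterol demethylase, by 2.15, and Tm7sf2 and Sc5d, which act near the end of the route, by 2.60 and 2.47. Stard4, a cholesterol transfer protein, changed by -0.76 and was not called.

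Enzymes that build the lipids of the myelin sheath moved the same way. In that list 12 of 19 genes fell and none rose (median -1.26). Fasn, fatty acid synthase, read 6.16, 6.31 and 6.13 at 0 d and 4.16, 4.54 and 4.42 at 14 d. Elovl7 and Elovl6, which lengthen fatty acids, fell by 2.46 and 2.41, Fa2h, which hydroxylates the fatty acids of myelin sphingolipids, by 2.43, and Ugt8, which makes galactosylceramide, by 2.19. Acaca, acetyl-CoA carboxylase, fell by 1.26, Cers2, a ceramide synthase, by 1.51, and Aspa, which frees acetate for lipid synthesis, by 1.66. A probe of Acaca other than the one used was called higher.

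Of 29 genes for myelin proteins and the Schwann cell surface, 14 fell and 1 rose (median -0.75). Pmp2, a fatty acid binding protein of myelin, fell from 8.01, 8.10 and 8.16 to 5.52, 5.92 and 5.63, 5.30-fold. Mbp, myelin basic protein, fell from 5.99, 5.83 and 6.19 to 4.33, 4.65 and 4.40, with no overlap. Mal, a small myelin membrane protein, fell by 2.13 on the log2 scale, Gjb1, the connexin of the non-compact myelin, by 1.90, Prx, periaxin, by 1.25, and its partner Drp2 by 1.96, with 1 of 2 Drp2 probes called. Pmp22, the compact myelin protein, changed by -0.74 and was not called. Gjc3, another connexin, rose by 1.01.

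Among 29 transcription factors and regulators of the Schwann cell lineage, 12 rose and 1 fell (median 0.58), and 7 rose under either setting with normexp correction. Pou3f1, the Oct-6 factor of the promyelinating stage, read -0.51, -0.30 and -0.16 at 0 d and 1.81, 2.12 and 1.96 at 14 d, a 4.89-fold rise (log2 change 2.29 ± 0.10, adjusted p = 2.4e-08). Sox2, a factor of immature Schwann cells, rose by 1.21, Jun, which encodes c-Jun, by 1.03, Runx1, a Runt family factor, by 1.62, and Nrg1, the neuregulin that drives myelination, by 2.05. Jun went from 3.09, 3.43 and 2.81 to 4.12, 4.07 and 4.21, with no overlap, and its change was 0.88 without replicate 3 of 0 d and 0.99 without replicate 3 of 14 d. Egr2, the Krox-20 factor of myelination, changed by -0.48 (adjusted p = 0.053) and was not called. Olig1, an oligodendrocyte lineage factor, was the 1 that fell, by 1.56.

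The list of repair Schwann cell genes held both directions, with 15 of 35 higher, 8 lower and a median of 0.65. With normexp correction and quantile normalization 9 were higher and 6 lower. Ngfr, the p75 neurotrophin receptor, rose from 0.56, 0.85 and 0.36 to 3.92, 3.90 and 3.78, 9.70-fold (log2 change 3.28 ± 0.11, adjusted p = 4.6e-09). Tnc, the matrix protein tenascin-C, rose by 3.32, and the trophic factor gene Gdnf went from -1.66, -1.82 and -1.92 to -0.09, -0.10 and -0.25, 3.14-fold. Shh, sonic hedgehog, rose 4.62-fold with 2 of its 3 arrays of 0 d above background. Bdnf, a neurotrophin, was called higher and read -6.51, -6.78 and -7.49 at 0 d, where 1 of 3 arrays cleared background, and -5.25, -6.10 and -5.26 at 14 d. Artn, the ligand of the Gfra3 receptor, changed by 0.87 and was not called.

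Other trophic genes of this list fell. Cntf, ciliary neurotrophic factor, dropped from 5.76, 5.87 and 6.32 to 3.81, 4.27 and 4.13, 3.76-fold. Ntf3, neurotrophin-3, fell by 1.60, and Ret, the signalling receptor shared by the GDNF family, fell by 2.66, with 3 of 4 Ret probes called.

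**Figure D2:**
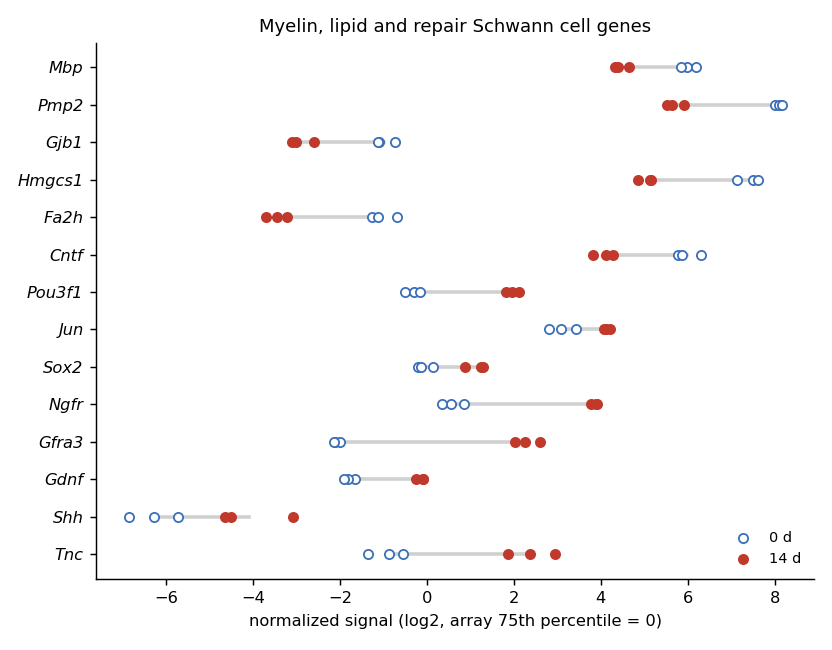
Normalized signal (log2, array 75th percentile = 0) of 14 myelin, lipid, transcription factor and repair genes on the 3 arrays of 0 d (open circles) and the 3 of 14 d (filled circles), with grey bars between the group means. Mbp, Pmp2, Gjb1, Hmgcs1, Fa2h and Cntf lie lower at 14 d, and Pou3f1, Jun, Sox2, Ngfr, Gfra3, Gdnf, Shh and Tnc higher.

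Lymphocyte markers rose almost as a block. Of 30 T and natural killer cell markers, 29 rose and none fell, with a median log2 change of 3.17. Their mean normalized signal was -4.81, -4.78 and -4.61 at 0 d and -1.46, -2.23 and -1.38 at 14 d. The list covers the receptor complex (Cd3e and Cd3d), both co-receptors (Cd8a, and Cd4, which rose by 2.14) and cytotoxic granule genes (Prf1, perforin, by 3.26 and Gzmb, granzyme B, by 3.17). Cd2, an adhesion receptor of T cells, had the largest change of the list, 4.91. Cd2 did not meet the rule for the leading rises, which asked for signals well above background at both times and no overlap. The size of its change may therefore rest in part on dim signals. Ifng, interferon gamma, was not well above background at 0 d and was at least 3.26-fold higher at 14 d. Of 10 B cell and plasma cell markers, 8 rose, among them Jchain, the joining chain of secreted antibodies, which was at least 2.52-fold higher. Only 2 of these 10 passed after normexp correction and quantile normalization, against 21 of the 30 T and natural killer cell markers.

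Macrophage and monocyte markers rose by less. In this list 21 of 30 genes rose and 1 fell (median 1.28), and the list mean was -0.15, -0.12 and 0.08 at 0 d and 1.24, 0.88 and 1.24 at 14 d. Fcgr3a, an antibody receptor, rose 8.80-fold, Cx3cr1, the fractalkine receptor, 7.20-fold, and Gpnmb, a glycoprotein of lipid-laden macrophages, 6.87-fold. Cd68, a lysosomal protein of macrophages, rose by 1.56 and Csf1r, the receptor that macrophages need to survive, by 1.19. Spp1, osteopontin, which Schwann cells also express, fell from 6.91, 6.95 and 7.24 to 4.76, 5.15 and 4.93.

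Of 19 genes of mast cells and neutrophils, 5 rose and 6 fell (median 0.04). The higher count depended on the scaling: none of the 19 rose and 6 fell with normexp correction and quantile normalization, 2 rose and 5 fell with normexp correction and the 75th percentile, and 2 rose and 7 fell with quantile normalization and in the authors' values. Cma1, mast cell chymase, read 3.63, 3.70 and 3.23 at 0 d and 1.11, 1.15 and 1.79 at 14 d, a 4.49-fold fall. The mast cell genes Cpa3, carboxypeptidase A3, and Ms4a2, a chain of the IgE receptor, also fell, by 1.61 and 2.13. Csf3r, the G-CSF receptor of neutrophils, rose by 2.06 and the calprotectin gene S100a8 by 1.38.

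Of 37 chemokine and cytokine genes, 20 rose and 1 fell (median 1.2). Cxcl13, which attracts B cells, rose 8.13-fold, from 0.27, 0.36 and 1.59 to 4.15, 3.15 and 3.99. Cxcl11, an interferon-induced chemokine, was called higher, with -6.61, -6.33 and -4.36 at 0 d, where 1 of 3 arrays cleared background, and -0.64, -1.60 and 0.02 at 14 d. Il6, interleukin 6, and Tnfsf11, which encodes RANKL, were at least 2.38-fold and 2.26-fold higher. Ccl19, a chemokine for T cells and dendritic cells, fell by 1.45. With normexp correction 11 of the 37 genes rose after quantile normalization and 13 after the 75th percentile.

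Of 21 genes of antigen presentation, 12 rose and none fell (median 1.27). The class II gene RT1-Da went from 4.00, 4.07 and 3.84 to 5.92, 5.58 and 5.91, and Ciita, which switches class II genes on, rose by 2.27. Of 21 complement genes, 12 rose and 1 fell (median 1.14). C3, the central component, rose 4.52-fold, Cfi, the protease that inactivates it, 12.2-fold, from -3.11, -2.93 and -3.38 to 0.66, 0.07 and 0.69, and Cd55, which protects cells from complement, fell 2.85-fold. In contrast, 4 of 29 lysosome and phagocytosis genes rose and 1 fell (median 0.11), a share close to that of all genes. The interferon response list had 2 genes higher and 1 lower of 23. Without replicate 3 of 0 d 5 were higher, and without replicate 2 of 14 d 4 were. The list mean at 0 d ranged from 0.83 to 2.19, with replicate 3 the highest, and at 14 d from 1.31 to 1.83, so the groups overlapped.

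Most genes of the cell cycle list rose. Of 45 genes, 37 rose and none fell, with a median of 1.29. The list mean was -0.86, -0.79 and -1.31 at 0 d and 0.39, 0.22 and 0.37 at 14 d. Birc5, survivin, which holds the chromosomal passenger complex in place at mitosis, rose from -1.64, -2.99 and -2.58 to 0.81, 0.60 and 0.65, 8.51-fold (log2 change 3.09 ± 0.27, adjusted p = 2.6e-06). Cdk1, the mitotic kinase, rose from 2.40, 2.64 and 1.97 to 4.06, 3.79 and 3.95. Top2a, which untangles DNA, rose by 1.79, Mcm5, a part of the replicative helicase, by 2.21, and Cdca8, another passenger subunit, by 1.40. The 8 genes not called included Ccnd1, cyclin D1, at 0.74 and Tyms, thymidylate synthase, at 0.97.

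Since these genes moved together, the letters of their promoters are shown for a few members. Promoter windows from 250 bases before to 50 bases after the start site were taken from RefSeq (GRCr8 build), and 33 of the 45 genes had one. The inverted CCAAT box, searched as ATTGG on both strands, was present in 24 of these 33 windows (72.7%) against 37.5% of all 33469 windows. The cell cycle homology region, searched as TTTGAA on both strands, was in 15 (45.5%) against 18.3% of all. A match is a description of letters and not of binding. Both motifs stood upstream of the start in 8 of the cell cycle genes that rose, of which Birc5, Top2a, Cdk1 and Cdca8 are shown 5′ to 3′ along the gene, with every match to either motif in capitals. In Cdca8 a match of each motif overlaps in the run TTTGAATTGG.
Birc5, chr10:103571913-103572145, plus strand: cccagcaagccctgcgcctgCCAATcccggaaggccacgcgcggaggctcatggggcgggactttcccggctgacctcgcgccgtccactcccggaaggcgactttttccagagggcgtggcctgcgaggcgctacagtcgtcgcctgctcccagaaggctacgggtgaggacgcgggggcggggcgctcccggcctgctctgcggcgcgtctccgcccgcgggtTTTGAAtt
Top2a, chr10:84473094-84473343, minus strand: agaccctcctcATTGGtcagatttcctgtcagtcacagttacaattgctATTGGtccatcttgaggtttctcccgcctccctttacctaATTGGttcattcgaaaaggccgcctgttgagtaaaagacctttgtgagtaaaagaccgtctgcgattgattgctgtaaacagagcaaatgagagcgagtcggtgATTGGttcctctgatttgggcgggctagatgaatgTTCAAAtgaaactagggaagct
Cdk1, chr20:19265063-19265292, plus strand: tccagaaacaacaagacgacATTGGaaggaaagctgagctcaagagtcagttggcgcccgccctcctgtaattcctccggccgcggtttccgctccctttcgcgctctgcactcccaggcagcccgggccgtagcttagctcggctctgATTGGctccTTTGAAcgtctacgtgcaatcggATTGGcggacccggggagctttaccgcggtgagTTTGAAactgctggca
Cdca8, chr5:142483264-142483411, minus strand: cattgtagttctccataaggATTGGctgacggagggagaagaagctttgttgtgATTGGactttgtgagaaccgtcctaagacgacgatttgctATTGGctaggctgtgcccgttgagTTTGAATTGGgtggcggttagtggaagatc

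The same ATTGG letters were then looked up for the cholesterol synthesis genes, a search added after the first results were seen. They were in 16 of the 19 windows found (84.2%). A short stretch around the match upstream of the start is shown for Tm7sf2 and Sc5d, the genes of that list that fell most, with that match in capitals. The Tm7sf2 window held another match, downstream of the start. The sterol response element, searched as TCACNCCAC on both strands, was in none of the 19 windows and in 1.12% of all windows, which says only that these letters were not there. The AP-1 element TGANTCA was in 1 of 19 windows of the repair Schwann cell genes, that of Cntf (5.26%), against 7.33% of all windows.
Tm7sf2, chr1:212789606-212789650, minus strand: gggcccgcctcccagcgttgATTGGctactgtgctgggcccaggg
Sc5d, chr8:51538340-51538384, minus strand: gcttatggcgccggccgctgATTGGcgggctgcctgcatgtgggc

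Collagen and matrix genes changed in part. Of 56, 10 rose and 4 fell (median 0.19), shares near those of all genes, and 2 fell with normexp correction and quantile normalization. Col7a1, the collagen of anchoring fibrils, rose by 3.17, from -2.86, -3.82 and -4.13 to -0.52, -0.35 and -0.44, and Thbs2, thrombospondin 2, by 1.81. Fmod, fibromodulin, fell 3.63-fold and Col2a1, the cartilage collagen, 2.84-fold, with 1 of 2 Col2a1 probes called. The fibrillar collagen gene Col1a2, at -0.76, and Col3a1, at -0.60, were not called.

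Enzymes that cut or link the matrix moved more often, with 14 of 39 genes higher and 1 lower (median 0.56). With normexp correction and quantile normalization 9 were higher, and without replicate 1 of 14 d 5 were lower. Besides Mmp12 and Mmp7, Mmp9, gelatinase B, was called higher, with -6.51, -6.11 and -6.69 at 0 d and -3.43, -2.82 and -3.95 at 14 d. Mmp3, stromelysin, was called higher as well, going from -6.85, -6.25 and -5.94 to -3.09, -3.77 and -4.51. Only 1 of 3 arrays of 0 d cleared background for either gene. P4ha1, a collagen prolyl hydroxylase, fell by 1.46. Of 21 fibroblast and endoneurial markers 5 rose and 1 fell, with 3 higher under normexp correction and the 75th percentile or without replicate 2 of 0 d. Thy1, a surface glycoprotein, rose by 2.31 and Gsn, gelsolin, fell by 1.35.

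Of 33 genes of axons and neurons, 15 fell and 6 rose in the nerve (median -0.80). The counts depended on the background correction: 11 fell and 2 rose with normexp correction and quantile normalization (median -0.43), and 7 fell and 2 rose with normexp correction and the 75th percentile, where the list median turned to 0.06 and that of all probes was 0.43. Prph, the intermediate filament peripherin, fell from 1.32, 1.42 and 1.69 to -0.66, -0.31 and -0.22, and Tubb3, neuronal beta-tubulin, from 0.47, 0.66 and 0.79 to -0.91, -0.91 and -0.60. Stmn2, a microtubule regulator, fell by 1.72 and Isl1, a sensory neuron transcription factor, by 2.39. The neurofilament subunits went apart: Nefl rose from -4.22, -4.67 and -3.78 to -2.43, -1.36 and -1.11 and Nefm rose by 1.67, whereas Nefh fell by 1.57, a change that was 0.27 with normexp correction and the 75th percentile. The sodium channel gene Scn10a of nociceptors rose by 1.69.

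Genes of the node of Ranvier and its neighbourhood gave 8 lower and 3 higher of 26 (median -0.30), against 8 lower and none higher with normexp correction and quantile normalization, and 5 lower and 1 higher with normexp correction and the 75th percentile. Kcna1, a potassium channel of the juxtaparanode, fell from 5.52, 5.58 and 6.07 to 3.71, 4.28 and 3.79, and Nfasc, neurofascin, fell by 1.45. Of 43 axon guidance genes 7 rose (16.3%) and 2 fell (4.65%), near the 14.9% and 6.18% of all genes (median 0.30). Only 4 rose with normexp correction and quantile normalization, and 4 fell without replicate 2 of 14 d. The semaphorin gene Sema5a fell by 2.14, and Plxnc1, a semaphorin receptor, rose by 2.19.

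Few vascular markers changed: of 28 endothelial and mural genes 1 rose and 2 fell (median -0.15). Those that fell are genes of barrier vessels, Mfsd2a, a lipid transporter, from 2.43, 2.26 and 2.74 to 0.12, 0.56 and 0.18, and Abcb1a, the P-glycoprotein pump, by 1.65. Esm1, a product of sprouting endothelium, rose by 1.90. In the list of perineurial and barrier genes 3 of 23 rose and 4 fell. Cldn5, the claudin of endothelial tight junctions, fell by 1.44, Slc2a1, the glucose transporter of barrier cells, by 1.12, and Ocln, occludin, rose by 1.28. The log2 changes of this list ran from -3.43, for Lrp2 described above, to 4.46, for a gene that did not meet the rule for the leading rises.

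Of 31 genes of glucose and lactate metabolism 8 fell and 1 rose (median -0.56). Only 4 fell with normexp correction and quantile normalization and in the authors' values, and 5 with quantile normalization. Pfkm, a phosphofructokinase, read 5.97, 5.04 and 5.22 at 0 d and 3.97, 4.11 and 4.21 at 14 d. Gapdh, a glycolytic enzyme, fell 2.14-fold, from 7.23, 6.36 and 6.48 to 5.64, 5.55 and 5.58 (a log2 change of -0.83 without replicate 1 of 0 d, below the limit), and Hk3, a hexokinase of myeloid cells, rose by 3.89. Replicate 1 of 0 d had the highest list mean, 2.17 against 1.37 and 1.38 for the other 0 d arrays and 1.17 to 1.24 at 14 d, and without it 7 genes fell and 1 rose. None of 31 respiratory chain genes was called (median -0.33). In the adipocyte list 6 of 14 genes fell and 1 rose, but without replicate 1 of 0 d 2 fell and 1 rose, and 3 fell by the methods' t-test. Dgat2, which makes triglycerides, was even on the 0 d arrays, at 3.82, 3.75 and 3.52, and fell by 2.20.

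Of 44 growth factors and hormones, 10 were higher and 10 lower (median -0.07). The counts were 4 and 8 with normexp correction and quantile normalization, and 7 and 6 with normexp correction and the 75th percentile (median 0.24). Inhba, the activin A subunit, rose by 2.21 and the fibroblast growth factor gene Fgf5 was at least 5.08-fold higher, while Tgfa, transforming growth factor alpha, fell from 4.07, 4.52 and 4.58 to 1.94, 2.21 and 2.21. Of 30 genes of iron, haem and oxidative stress 7 fell and 2 rose. Mt3, a metallothionein, fell by 2.47 and Nqo1, a quinone reductase, by 1.58. In the xenobiotic and retinoid list 7 of 27 fell and 6 rose, with the flavin monooxygenase gene Fmo2 at -2.49.

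Circadian genes gave 4 lower and 2 higher of 18, and 2 were lower under either setting with normexp correction. Dbp, a clock output factor, read 3.57, 2.31 and 3.10 at 0 d and 1.04, 1.02 and 1.02 at 14 d, and Nr1d1, the REV-ERB alpha repressor, fell by 1.60. Per1, a core clock repressor, rose by 1.81. The hour at which tissue was taken is not given in the sources used here. Of 27 immediate early genes 8 rose and 2 fell, and 5 rose without replicate 3 of 0 d or by the methods' t-test after Benjamini-Hochberg adjustment. The AP-1 subunit genes Fos and Fosl1 rose by 1.96 and 1.99, and Arc, best known from active neurons, fell by 2.59. Of 33 apoptosis genes 5 rose and 1 fell, the latter being Hrk, a BH3-only death activator, which fell by 2.78.

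**Figure D3:**
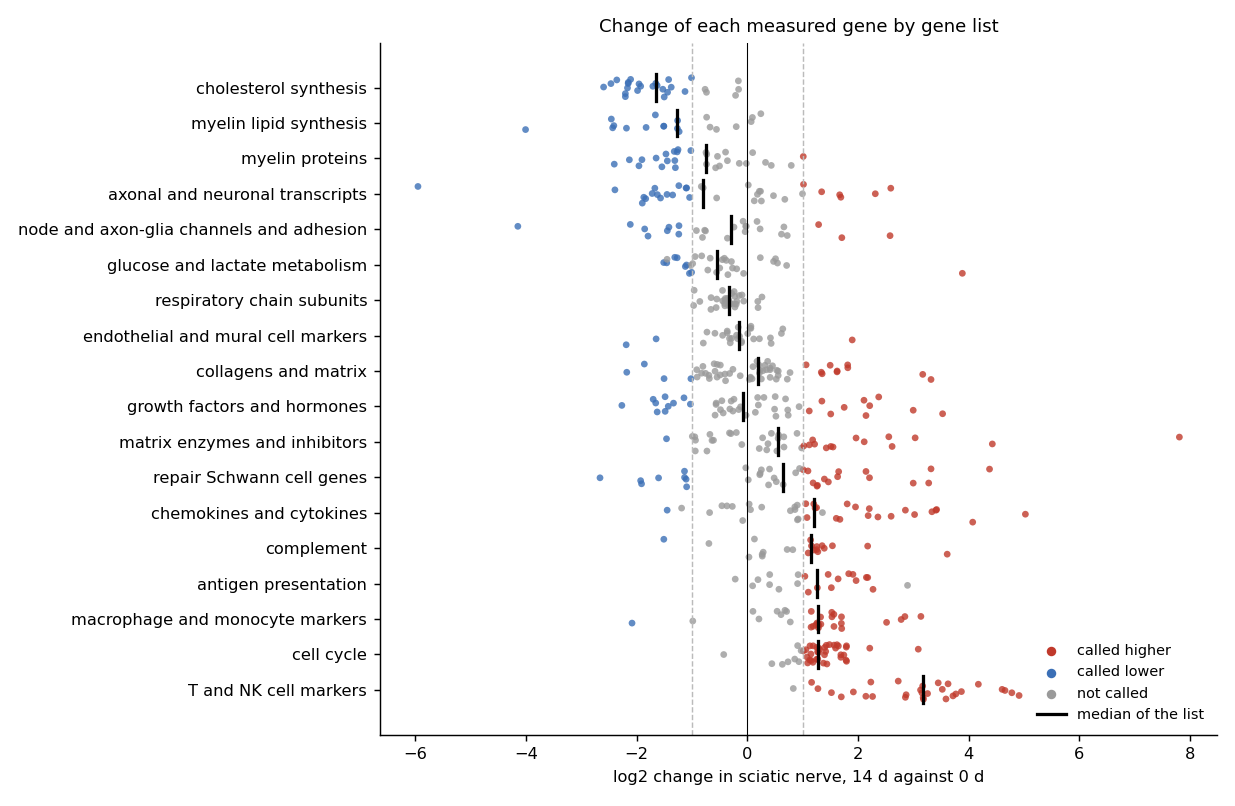
Log2 change between 14 d and 0 d of each measured gene in 18 gene lists; points are genes (red called higher, blue called lower, grey not called), black bars are list medians and dashed lines mark the 2-fold limits. Cholesterol synthesis lies lowest with a median of -1.66, and the T and natural killer cell markers lie highest with a median of 3.17.

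Few genes differed between 14 d and 7 d. Against the 3 arrays of 7 d, 119 of the 14201 genes (0.838%) were higher at 14 d and 134 (0.944%) lower. The 7 d arrays lay on another slide and were scanned on another day. Time therefore cannot be told apart from slide or scan day here either. No gene of the cholesterol, myelin lipid or cell cycle lists was called in either direction, with medians of 0.15, 0.09 and -0.53. The cell cycle list mean was 0.77 to 0.87 on the 7 d arrays, above all 14 d arrays, and the macrophage list mean was 1.59 to 1.74, also above all 14 d arrays. These counts depend on the arrays. For all probes, 320 were higher and 260 lower, while leaving out replicate 2 of 14 d gave 180 and 170, leaving out replicate 3 of 14 d gave 301 and 856, and leaving out replicate 2 of 7 d gave 157 and 160; without replicate 3 of 7 d 193 were higher. With slide as a random block 119 probes were higher and 100 lower.

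Matrix, chemokine and interferon-induced genes were among the 8 with the largest fall from 7 d to 14 d. The log2 change from 7 d was -2.66 for Mmp13, collagenase 3, -2.09 for Mmp9 and -2.44 for Ccl12, a monocyte chemokine. It was -2.22 for Ifit1, an interferon-induced gene, and -1.96 for Oasl, another. The calls of Ccl12 and Oasl were lost without replicate 1 or 2 of 14 d or any 1 array of 7 d, and those of Ifit1 and Siglec1 without replicate 2 of 14 d or of 7 d. The interferon list as a whole had a median of -1.18, with 3 of 23 genes called, and its mean was 2.54, 3.23 and 2.50 on the 7 d arrays. Gpr84, a receptor of activated macrophages, changed by -2.14, Siglec1, a macrophage lectin, by -1.85, and Wif1, a secreted Wnt inhibitor, by -1.87. In the repair Schwann cell list 5 of 35 genes were lower than at 7 d, among them Tnc at -1.27, and none was higher. Among T cell genes Cd8a changed by -1.45 and Ccl5 by 1.13.

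Genes higher at 14 d than at 7 d were led by Btnl8, a butyrophilin-like gene, at 3.26, and Egfl6, a secreted EGF-like protein, at 3.08. Klk10, a kallikrein, was 2.91 higher, and Kcnj13, an inward rectifier potassium channel, 2.38 higher. Kcnj13 read 0.37, 0.51 and 0.41 at 0 d and 0.26, 0.75 and 1.04 at 14 d, which overlap, with a mean of -1.69 at 7 d. Or4c1, an olfactory receptor, Cyp4f4, a cytochrome P450, Asb9, an adaptor of ubiquitin ligases, and Bmp3, a bone morphogenetic protein, were 2.21, 2.21, 2.20 and 2.01 higher. Of the structural genes, Cntnap1, the paranodal Caspr protein, was 1.15 higher than at 7 d, and Col2a1 1.01 higher.

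**Figure D4:**
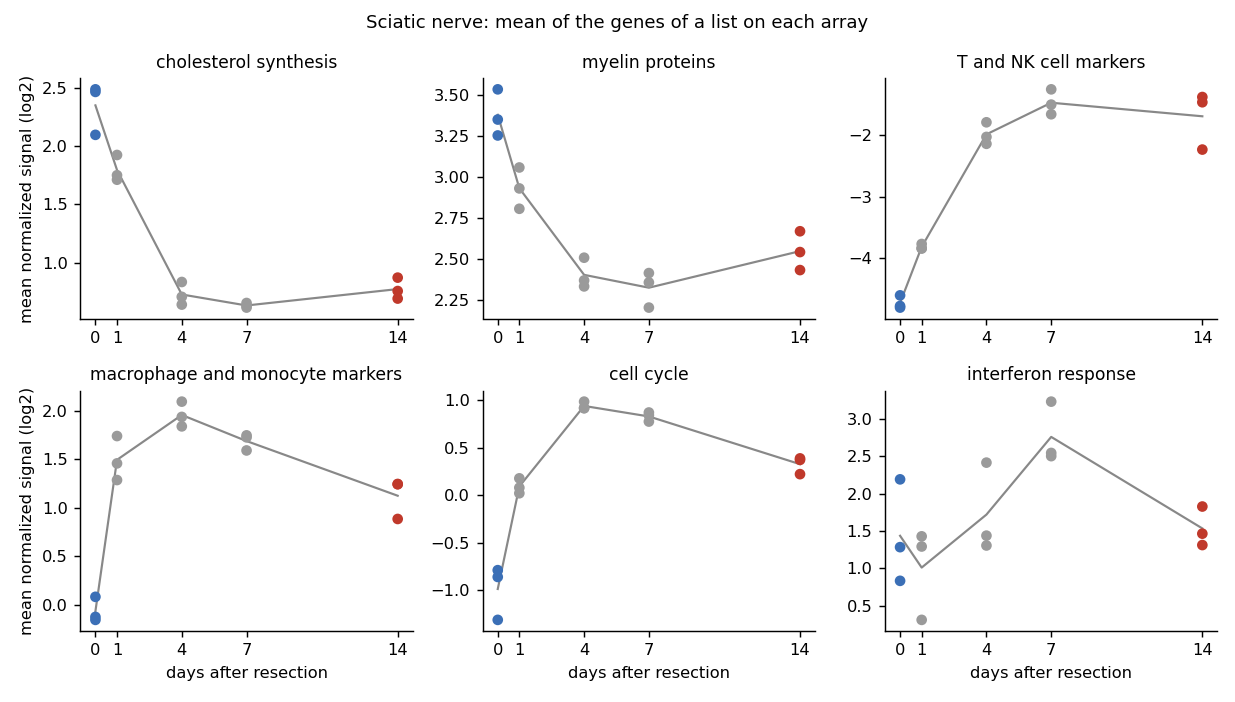
Mean normalized signal (log2) of the genes of 6 lists on each sciatic nerve array against days after resection; blue points are 0 d, red points 14 d, grey points the days between, and the line joins the means. The cholesterol list stays low from 7 d (0.61 to 0.65) to 14 d (0.69 to 0.87), whereas the interferon list is at 2.50 to 3.23 at 7 d and 1.31 to 1.83 at 14 d.

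The change in the nerve was set against the change over the same interval in the ganglia, as the difference between both changes in 1 model over all 30 arrays. Nerve and ganglia of a day may come from the same rats. The model treated all arrays as separate samples, so its standard errors and p-values leave out any such pairing. Of 13753 genes tested in both tissues, 839 (6.1%) changed upward more in the nerve and 1004 (7.3%) changed more toward lower values in the nerve, at an adjusted p below 0.05 and a difference of more than 2-fold. The ganglion arrays of 0 d and 14 d were scanned on the same days as those of the nerve. For 23 of 27 cholesterol genes the change was lower in the nerve, and the list median was -0.04 in the ganglia. Hmgcs1 changed by -0.11 there, a difference of -2.25. Cell cycle genes behaved likewise in the other direction: for 39 of 45 the change was higher in the nerve, with a median of -0.32 in the ganglia.

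The neuropeptide genes Vip and Gal changed in opposite directions in nerve and ganglia. Vip, vasoactive intestinal peptide, fell by 1.84 in the nerve, from -0.60, -1.72 and -0.32 to -2.81, -2.85 and -2.50, and changed by 8.18 in the ganglia, a difference of -10.02 ± 0.43 (SE, adjusted p = 1.9e-13). Gal, galanin, fell by 1.67 in the nerve and changed by 4.14 in the ganglia, a difference of -5.81. Other neuropeptide genes had other patterns: Calcb rose by 5.90 in the nerve and changed by -0.39 in the ganglia. Sst was at least 16.6-fold lower in the nerve and changed by -0.41 in the ganglia. Hrk, the death activator gene and not a neuropeptide gene, fell by 2.78 in the nerve and changed by 2.02 in the ganglia, a difference of -4.80.

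Of 27 T and natural killer cell markers tested in both tissues, 13 changed more in the nerve and 2 less, and the list medians were 3.17 in the nerve, over 30 genes, and 1.66 in the ganglia, over these 27. Gzmb and Xcl1, a chemokine of cytotoxic cells, were the pair that changed more in the ganglia, by 5.79 against 3.17 and 5.04 against 3.45. For the macrophage list the medians were 1.28 and 1.18, and 1 gene changed more and 2 less in the nerve. Arg1, arginase 1, changed by 0.61 in the nerve and 3.95 in the ganglia (difference -3.34). Of 21 antigen presentation genes, 5 changed less in the nerve and none more, as in RT1-Da, with 1.83 against 3.37, and Cd74, the class II invariant chain, with 1.46 against 3.07. The clock genes Dbp and Nr1d1 changed by -1.96 and -1.60 in the nerve and by -1.83 and -1.46 in the ganglia.

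**Figure D5:**
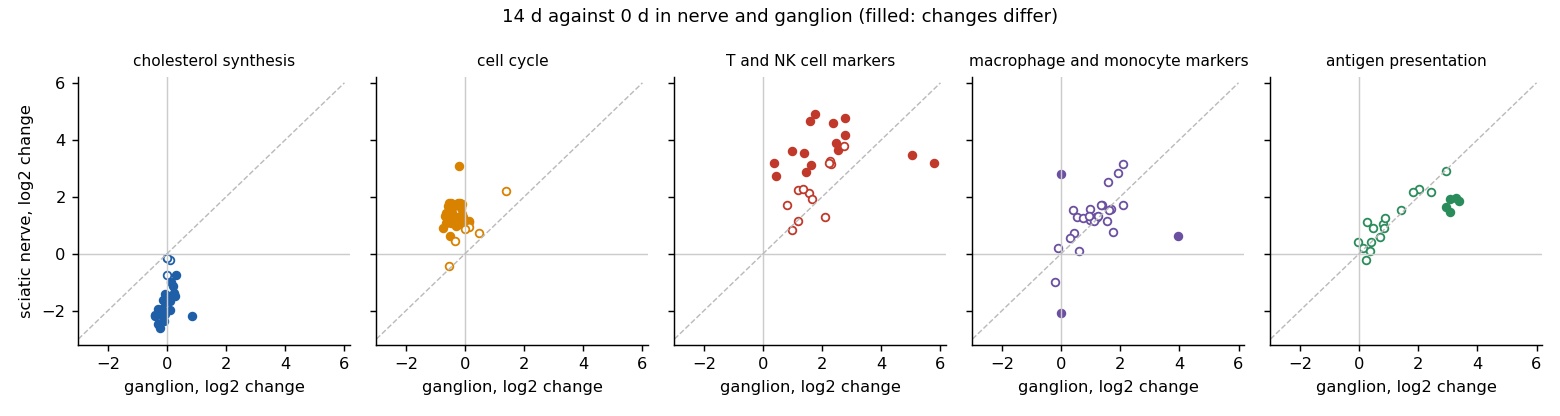
Log2 change between 14 d and 0 d in the sciatic nerve (vertical axis) against the dorsal root ganglia (horizontal axis) for the genes of 5 lists; filled points are genes whose changes differ between the tissues, and the dashed line marks equal change. Cholesterol genes lie below 0 in the nerve and near 0 in the ganglia (medians -1.66 and -0.04), most cell cycle genes lie above 0 in the nerve, and 5 antigen presentation genes lie below the line as filled points.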

How the data were processed

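RNA of 15 sciatic nerve and 15 ganglion samples had been labelled with Cy3 and hybridized, 1 sample an array, to an Agilent rat array designed on rn4; the labels and the study's methods name different RNA extraction reagents. The deposited scanner files hold the processed signal as a linear intensity that Feature Extraction 10.5.1.1 had corrected for background, and the authors' deposited table holds log2 values of the same 41012 probes made in GeneSpring. Groups came from the sample titles. Here log2 of the processed intensity minus each array's 75th percentile over non-control spots was used, outlier spots were dropped (672 missing values), and spots of 1 probe were averaged; no spot was saturated. A probe was tested if the 3 arrays of any nerve time point all had it well above background (35163 probes). limma 3.58.1 in R 4.3.3 was fitted to the 15 nerve arrays, and to all 30 arrays for the nerve against ganglion difference (33806 probes), with calls at p under 0.05 after Benjamini-Hochberg adjustment and over 2-fold. Each gene took its tested probe with the highest mean over the 15 nerve arrays; 3581 genes had several probes and in 12 they were called in opposite directions. Symbols were updated through RefSeq, where 13088 of 17504 RefSeq accessions matched, and others kept the array's name; 20704 probes had a symbol. Where all arrays of 1 group were not well above background, the fold is a lower bound against the dimmest probes that were, taken per array. A gene's own signal was used on an array where it was brighter than those probes. Where this held on each array of the group, the fold is the estimate. The genes named are the 12 that rose and 12 that fell most among called genes well above background on all 6 arrays and not overlapping, the 8 with the largest bounds in each direction, the 8 with the largest calls in each direction against 7 d, and members of 34 gene lists (993 genes, 931 tested); no p was computed for a list. The members, lists and rules were chosen with earlier results of these data known. Alternatives were normexp correction with an offset of 50, quantile normalization, the authors' table, other filters, the methods' t-test, slide and replicate blocks, and leaving out each array. The fits were tested on simulated data. The number of arrays, 3 a group, limits the precision. Some list members are not reported here by name.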

Additional observations from a re-analysis of the deposited data

Results flagged for a closer look

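For 23 of the 24 leading genes the change between 14 d and 0 d in the nerve differed from the change in the ganglia, by limma's test of the difference in the model over all 30 arrays. The difference, given as the nerve's log2 change minus that of the ganglia, was 6.29 for Calcb, 4.74 for both Epcam and Sh2d1a, 4.64 for Crabp1, 4.12 for Spon1, 4.06 for Gpr83 and 3.69 for Gfra3 (adjusted p from 1.4e-13 to 1.7e-08). In these 7 genes the change in the ganglia lay between -0.39 and 0.69. It was 3.06 for Ccl5, 2.92 for Ubd, 2.02 for Cd8a, 1.98 for Tnfrsf14 and 1.42 for Gzmk, which changed by 1.60 to 2.77 in the ganglia. Among the genes that fell, the difference was -3.93 for Scd, -3.64 for B3galt2, -3.33 for Myh7, -3.21 for Robo3, -3.11 for Galnt13, -3.02 for Gpx2, -2.92 for Lrp2, -2.81 for both C1qtnf4 and Myh6, -2.60 for Vsnl1 and -2.58 for Fgf4. In the ganglia these 11 genes changed by -0.84 to 0.05. Myh6 and Myh7 had the largest standard errors of these differences, 0.96 and 1.03 (adjusted p = 0.028 and 0.016). For Zbtb16 the difference, -1.85, did not pass (adjusted p = 0.085). The genes were picked for their change in the nerve, which takes part in each difference. A high count was therefore favoured by the choice and is no evidence about these genes. Over all 13753 genes tested in both tissues, 6.1% changed upward more in the nerve and 7.3% more toward lower values.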

How the results depend on the processing

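Of the 14 d against 0 d counts, 5026 probes higher and 1919 lower, the higher count was 1041 with normexp correction and quantile normalization, 2223 with normexp correction and the 75th percentile, 2848 with quantile normalization, 2773 in the authors' values and 2661 with only probes that cleared background on all 6 arrays. The lower count was 1188 and 1060 under the first and second of these. Leaving out 1 array gave 4066 to 5539 higher and 1776 to 1993 lower. Against 7 d, 320 probes higher and 260 lower became 71 and 93 with normexp correction and quantile normalization, 66 and 34 with normexp correction and the 75th percentile, 65 and 34 with the methods' t-test after Benjamini-Hochberg adjustment, 119 and 100 with slide as a random block, and 212 higher with probes that cleared background in both groups. Leaving out 1 array there gave 157 to 329 higher and 160 to 856 lower. The nerve against ganglion difference was called for 4231 probes, 1728 higher and 2503 lower in the nerve, and for 1912, 867 and 1045 with normexp correction and quantile normalization. Leaving out 1 array gave 3872 to 4754, 1627 to 1971 and 2163 to 3115, and slide as a random block, chosen after seeing the data, gave 3931. The cause of these shifts was not tested. With the replicate number as a block, 5023 probes were higher and 1916 lower at 14 d, 272 and 246 against 7 d, and 4187 differed between the tissues. Same-numbered 0 d and 14 d arrays deviated from their group means with r = 0.05, 0.08 and -0.07, and differently numbered ones with r from -0.19 to 0.16. With 3 arrays a group these values cannot settle whether same-numbered samples share more than a number. Of the 169 called genes named in the text, 119 kept their call in every alternative that tested them, and of 68 counts of genes higher or lower in a list, 38 moved by more than 1.5 times in at least 1. The log2 change against 0 d reversed under normexp correction and the 75th percentile for Unc13c (0.11), Agr2 (0.20), Mc2r (0.33), Csmd1 (0.16) and Nefh (0.27). For Oasl, whose change of 0.01 was not called, it was -0.14 with normexp correction and quantile normalization, -0.16 with quantile normalization, -0.15 in the authors' values, and -0.46 to 0.52 when 1 array was left out, with -0.04, -0.46 and -0.12 without replicate 1 of 0 d, replicate 2 of 0 d and replicate 3 of 14 d. Dim probes limit what the arrays can show, since 2384 of the 5026 higher probes failed to clear background on every array of 1 group.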
